A study of Homo sapiens with 12 samples.

Results

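The genes described here encode subunits of the transcription factor NF-kB and proteins that hold it back or release it. They are 10 of the 11178 genes in the deposited table, chosen by name with earlier results of these data known. The subunit genes included are RELA, NFKB1, RELB and NFKB2, and the inhibitor genes are NFKBIA, NFKBIB and NFKBIE. The others are the deubiquitinase gene TNFAIP3 and the kinase complex genes IKBKB and IKBKG. The subunit gene REL and the kinase complex gene CHUK are not among the 10. All 10 were in the table and all 10 passed the filter on low values. They were measured by RNA sequencing of total RNA in U251-APP cells. U251 is an astrocytic line from a human glioblastoma, and U251-APP cells carry a stable APP transgene with the K670N/M671L change. The 3 groups had 4 libraries each. CTCF-A KO cells lacked the CTCF-binding site called CTCF-A, and CTCF-B KO cells lacked the site called CTCF-B. Each site was cut out with Cas9 and a pair of guide RNAs, after which single-cell clones were grown and genotyped. WT cells were U251-APP cells with both sites in place, and the labels list CRISPR/Cas9 editing as the treatment of all 3 groups. The labels do not say whether the 4 libraries of a knockout come from 1 clone or several, or whether WT cells were cloned, so a p-value here reflects the spread among the 12 libraries alone, which may be technical.

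NF-kB proteins bind DNA as dimers. In resting cells the dimers are kept in the cytoplasm by IkB proteins, and the IKK complex releases them by marking the IkB proteins for degradation. In a second branch, the precursor made from NFKB2 is trimmed and pairs with RelB. Several genes of the system, among them NFKBIA, TNFAIP3, NFKB2 and RELB, are themselves NF-kB targets, which forms feedback loops. The pathway is known for its activity in glioblastoma and for the inflammatory responses of astrocytes. Only transcripts were measured here, not the location or the activity of the proteins.

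The promoters of the genes with kappaB sequences are shown first because these elements are the sites NF-kB binds. RefSeq windows (GRCh38.p14) of 250 bases before to 50 bases after a start were matched by symbol for 7 of the 10 genes, and no entry was matched for RELB, NFKBIE and IKBKB. The windows were searched on both strands for the 10-base kappaB consensus. It was found in 6 of the 15 windows (40%), belonging to 5 of the 7 genes, against 5.91% of all 35114 windows. Counted by gene, that is 71.4% of these 7 genes against 7.09% of all 27303 genes. Matches on the 2 strands can overlap, since the consensus is nearly palindromic. A match describes the letters of a window and does not show that a factor binds there. The 250 bases before the NFKBIA start (chr14:35404750-35404999, minus strand) are printed because NFKBIA had the largest change from WT among the 10 genes as deposited, and those before 1 of the 3 listed NFKB2 starts (chr10:102395455-102395704, plus strand) because NFKB2 rose in CTCF-B KO cells. Capitals mark kappaB matches, which begin 81 bases before the start in NFKBIA and 176 and 21 bases before it in NFKB2. The window of another NFKB2 start (chr10:102394328-102394627) is not printed. It held 4 matches in 2 stretches, beginning 107, 106 and 78 bases before that start.
NFKBIA: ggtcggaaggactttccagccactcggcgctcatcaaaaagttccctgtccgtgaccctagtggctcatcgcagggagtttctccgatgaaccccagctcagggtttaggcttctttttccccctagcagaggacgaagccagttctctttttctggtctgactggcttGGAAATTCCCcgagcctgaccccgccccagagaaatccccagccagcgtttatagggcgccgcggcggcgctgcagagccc
NFKB2: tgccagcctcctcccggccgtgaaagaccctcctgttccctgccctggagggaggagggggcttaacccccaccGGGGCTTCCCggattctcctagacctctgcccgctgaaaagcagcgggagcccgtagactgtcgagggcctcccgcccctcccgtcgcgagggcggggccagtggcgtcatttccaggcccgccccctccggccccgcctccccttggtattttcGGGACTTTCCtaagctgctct

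The matches of the other 3 genes are shown with their flanks, again with the consensus in capitals. They begin 49 bases before the start in NFKB1 (chr4:102501310-102501319, plus strand) and 28 bases before it in NFKBIB (chr19:38899941-38899950, plus strand). In NFKBIB an overlapping match on the other strand, not marked separately, begins 27 bases before the start. TNFAIP3, a gene of the plus strand, has a pair of matches, 67 bases before the start (chr6:137867192-137867201) and 55 bases before it (chr6:137867204-137867213). Both match on the other strand and are printed as read on the strand of the gene. The windows of RELA and IKBKG held no match.
NFKB1: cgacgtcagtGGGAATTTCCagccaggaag
NFKBIB: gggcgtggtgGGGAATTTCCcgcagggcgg
TNFAIP3, first: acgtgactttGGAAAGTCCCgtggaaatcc
TNFAIP3, second: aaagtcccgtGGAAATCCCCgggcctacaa

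Values are normalized expression on a log2 scale, and read depth per library is unknown. CTCF-A KO replicates 1, 2 and 3 carried a trend with GC content: the 10% of genes richest in GC lay above the 10% poorest in GC by 0.96, 0.45 and 0.66 on the log2 scale relative to WT, against 0.06 in replicate 4, -0.10 to 0.03 in CTCF-B KO and -0.15 to 0.09 in WT. The 10 genes range from 49.5% GC in TNFAIP3 to 65.4% in RELB, above the GC content of 52.6% and 97.2% of the genes tested. All 10 thus lie on the GC-rich side of the genes tested. Their CTCF-A KO differences from WT are therefore given with and without this trend. The labelled astrocytic line showed GFAP, VIM, NES, SOX2, SOX9, FABP7, SLC1A3, GJA1 and CD44, 9 of 10 astrocyte and glioma markers. Their summed linear level was 117500 to 131600 in CTCF-A KO, 109100 to 113000 in CTCF-B KO and 168900 to 191600 in WT. GFAP differed most between the groups, at 12.57 in CTCF-A KO, 12.83 in CTCF-B KO and 15.68 in WT (mean log2 level). VIM stood at 15.94 in CTCF-A KO, 15.52 in CTCF-B KO and 15.92 in WT. The part of these markers in the results below was not tested. None of the 9 microglia and macrophage markers, none of the 5 lymphoid markers and 1 of the 5 endothelial markers, KDR, were among the genes analysed here. In a bulk sample, fewer cells of a kind and less RNA per cell cannot be told apart.

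Per kilobase of the longest annotated transcript, RELA and NFKBIA were the most abundant of the 10 genes and TNFAIP3 the least abundant in all 3 groups. RELA, the main activating subunit, stood at 708 ± 41.6 in CTCF-A KO, 738 ± 40.8 in CTCF-B KO and 742 ± 10.2 in WT (linear normalized value per kilobase, mean ± SD, n = 4). NFKBIA, which encodes IkB-alpha, stood at 878 ± 78.4 in CTCF-A KO, 548 ± 16.0 in CTCF-B KO and 491 ± 37.1 in WT. NFKBIA therefore ranked above RELA in CTCF-A KO, where their libraries did not overlap (788 to 979 for NFKBIA, 658 to 750 for RELA), and below it in CTCF-B KO and WT. NFKBIB ranked next in every group, at 368 ± 38.0 in CTCF-A KO, 348 ± 5.47 in CTCF-B KO and 297 ± 17.5 in WT. In WT the following 3 genes, NFKB2, NFKB1 and IKBKG, had overlapping library ranges and could not be ordered. IKBKB, RELB and NFKBIE came below them in WT, at 144 ± 6.03, 120 ± 6.59 and 92.7 ± 2.94. TNFAIP3 was lowest, at 43.4 ± 2.40 in CTCF-A KO, 37.6 ± 3.42 in CTCF-B KO and 35.2 ± 2.26 in WT.

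**Figure D1:**
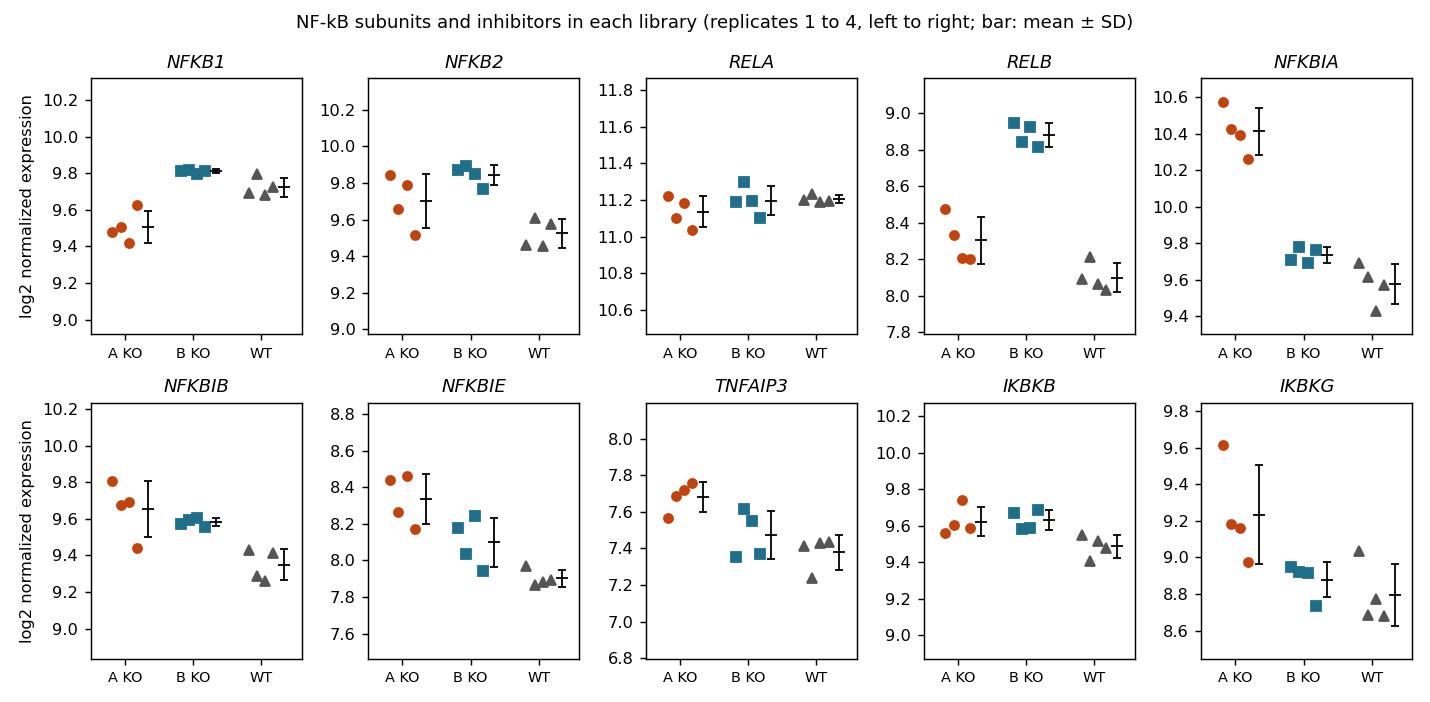
Log2 normalized expression of each gene (y axis, the same span in every panel) in CTCF-A KO, CTCF-B KO and WT libraries, with replicates 1 to 4 from left to right and the mean ± SD beside them. NFKBIA stands apart in CTCF-A KO, where its 4 libraries lie between 10.26 and 10.57, and RELB in CTCF-B KO, where its 4 libraries lie between 8.81 and 8.95.

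In CTCF-A KO cells NFKBIA rose the most of the 10 genes, with or without the GC trend. IKBKG, NFKBIE, NFKBIB and TNFAIP3 rose less, again with or without it, and NFKB1 fell. Of the 10 genes, 8 rose and 1 fell (limma, Benjamini-Hochberg over all genes tested), and RELA did not pass. The background is high: 62.9% of all 11128 genes passed in this comparison, 31.8% as higher and 31.1% as lower. The median log2 fold change was 0.25 over the 10 genes and 0.01 over all genes. With the GC and length trend removed, 5 rose and 2 fell, with a median of 0.11, where 61.5% of all genes passed, 31.5% as higher and 30.0% as lower. In 6 of the 10 genes the CTCF-A KO and WT libraries did not overlap, against 47.7% of all genes.

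In CTCF-B KO cells RELB rose the most, and NFKB2, which encodes its partner in the second branch, rose less, as did NFKBIB and IKBKB. RELA and NFKB1 did not pass. Here 4 of the 10 genes rose and 0 fell, where 39.4% of all genes passed, 18.9% as higher and 20.6% as lower, so the members' share is near the background. The median log2 fold change was 0.15 over the 10 genes and 0.00 over all genes. With the GC and length trend removed 6 rose and 0 fell (54.0% of all genes, 28.9% as higher and 25.0% as lower), and 7 rose in a fit of only the 8 CTCF-B KO and WT libraries, where 59.3% of all genes passed. Without WT replicate 2 or without WT replicate 3, 2 of the 10 passed, against 33.3% and 34.3% of all genes. In 5 of the 10 genes the CTCF-B KO and WT libraries did not overlap, against 53.6% of all genes.

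**Figure D2:**
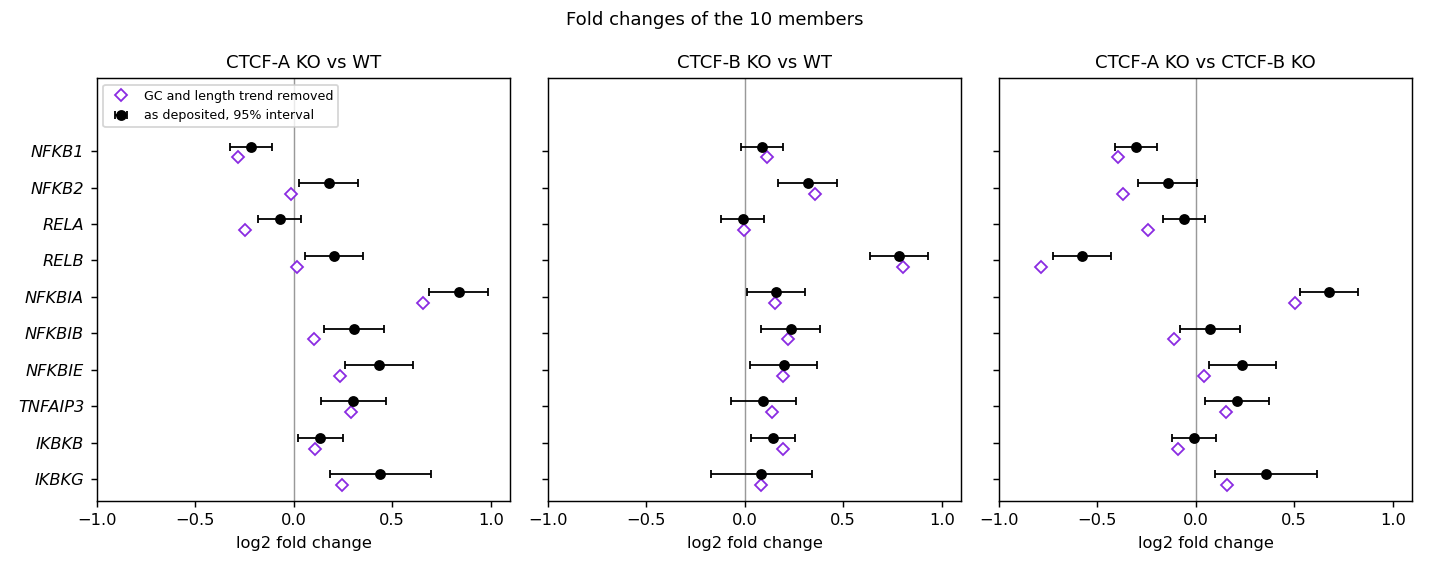
Log2 fold change (x axis) of the 10 genes in CTCF-A KO against WT, CTCF-B KO against WT and CTCF-A KO against CTCF-B KO. Black circles are the deposited values with the 95% interval of the model and open diamonds the values after removal of the GC and length trend. NFKBIA is at 0.84 in CTCF-A KO, RELB at 0.78 in CTCF-B KO, and for RELB in CTCF-A KO the diamond lies at 0.02.

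Among the inhibitors, NFKBIA (ENSG00000100906, chromosome 14, 35401511 to 35404749, GRCh38, minus strand) changed the most. Its log2 values were 10.57, 10.43, 10.39 and 10.26 in CTCF-A KO replicates 1 to 4, 9.71, 9.78, 9.69 and 9.76 in CTCF-B KO, and 9.69, 9.62, 9.43 and 9.57 in WT. All 4 CTCF-A KO libraries lay above every CTCF-B KO and WT library. The rise in CTCF-A KO was 1.79-fold (log2 0.84 ± 0.07, SE, n = 4, limma adjusted p 5.71e-07), larger in size than that of 95.8% of the genes tested. It was 0.66 with the GC and length trend removed (adjusted p 4.10e-08), and 0.69 when CTCF-A KO was represented by replicate 4 alone. The 29 other genes within 5 Mb had a median of -0.22, or -0.02 with the trend removed. In CTCF-B KO its difference from WT was 0.16 ± 0.07 and did not pass (adjusted p 0.0836), although it passed with the trend removed (0.15, adjusted p 0.0122) and without CTCF-A KO replicate 1 or 4, which enter the estimate of the spread. The difference between the knockouts was itself 0.68 ± 0.07 (adjusted p 2.39e-06), or 0.50 with the trend removed.

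NFKBIE (ENSG00000146232, chromosome 6, 44258166 to 44265788, minus strand) encodes IkB-epsilon, which like IkB-alpha is resynthesized after NF-kB activation. It stood at 8.44, 8.27, 8.46 and 8.17 in CTCF-A KO, 8.18, 8.04, 8.24 and 7.94 in the CTCF-B KO libraries, and 7.97, 7.86, 7.88 and 7.90 in WT. The CTCF-A KO libraries all lay above WT, while 1 CTCF-B KO library lay within the WT range. The rise in CTCF-A KO was 0.43 ± 0.08 (SE, n = 4, limma adjusted p 4.59e-04), or 0.24 with the trend removed (adjusted p 0.00414). In CTCF-B KO the difference was 0.20 ± 0.08 (adjusted p 0.0637, and 0.0157 with the trend removed), and it passed without CTCF-A KO replicate 1 or 4 or CTCF-B KO replicate 4 (adjusted p 0.0269 to 0.0492). The difference between the knockouts passed as deposited (0.24 ± 0.08, adjusted p 0.0183) and not with the trend removed (0.04, adjusted p 0.552). It also did not pass without CTCF-A KO replicate 3 or without CTCF-B KO replicate 2 or 4 (adjusted p 0.0506 to 0.0638).

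NFKBIB (ENSG00000104825, chromosome 19, 38899700 to 38908893, plus strand) encodes IkB-beta, which holds RelA dimers more persistently. Its values were 9.81, 9.68, 9.69 and 9.44 in CTCF-A KO, 9.57, 9.60, 9.61 and 9.56 in the CTCF-B KO libraries, and 9.43, 9.29, 9.26 and 9.41 in WT. Both knockouts lay above WT in every library, CTCF-A KO replicate 4 by little. It rose by 0.30 ± 0.07 in CTCF-A KO (SE, n = 4, limma adjusted p 0.00225) and by 0.23 ± 0.07 in CTCF-B KO (adjusted p 0.0178). The CTCF-A KO value was 0.10 with the trend removed (adjusted p 0.0273), where the 133 other genes within 5 Mb had a median of 0.10, and 0.09 with replicate 4 alone (adjusted p 0.302). The CTCF-B KO rise did not pass without WT replicate 2 (adjusted p 0.0534) or without WT replicate 3 (adjusted p 0.0558). NFKBIB shares 163 bases with SIRT2 on the other strand, and the strand setting of the counting is not given in the sources used here. SIRT2 was itself higher in CTCF-A KO (0.28, adjusted p 0.00289) and not in CTCF-B KO (0.02, adjusted p 0.844).

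TNFAIP3 (ENSG00000118503, chromosome 6, 137867188 to 137883312, plus strand) encodes A20, a ubiquitin-editing enzyme that shuts off signalling upstream of IKK. It stood at 7.57, 7.69, 7.72 and 7.75 in CTCF-A KO, 7.35, 7.62, 7.55 and 7.37 in the CTCF-B KO libraries, and 7.41, 7.24, 7.43 and 7.44 in WT. CTCF-A KO lay above WT in every library, and CTCF-B KO overlapped both. The rise in CTCF-A KO was 0.30 ± 0.08 (SE, n = 4, limma adjusted p 0.00398) and differed little with the trend removed (0.29, adjusted p 0.00345) or with replicate 4 alone (0.38, adjusted p 0.0191). In CTCF-B KO the difference was 0.09 ± 0.08 (95% interval -0.07 to 0.26, adjusted p 0.358). The knockouts differed by 0.21 ± 0.08 (adjusted p 0.0268), a call that was lost with the trend removed (0.15, adjusted p 0.0763) and without CTCF-A KO replicate 2 or 3 or CTCF-B KO replicate 1 or 4 (adjusted p 0.0515 to 0.0844). TNFAIP3 overlaps an antisense gene, AL357060.1, by 1046 bases.

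Among the subunits, RELB (ENSG00000104856, chromosome 19, 45001430 to 45038198, plus strand), the partner of the NFKB2 product, separated the knockouts most. Its values were 8.48, 8.33, 8.21 and 8.20 in CTCF-A KO, 8.95, 8.84, 8.92 and 8.81 in the CTCF-B KO libraries, and 8.09, 8.21, 8.07 and 8.03 in WT. Every CTCF-B KO library lay above all libraries of the other groups, and CTCF-A KO overlapped WT. The rise in CTCF-B KO was 1.72-fold (log2 0.78 ± 0.07, SE, n = 4, limma adjusted p 1.50e-06), larger in size than that of 97.3% of the genes tested, and 0.80 with the trend removed. The 170 other genes within 5 Mb had a median of 0.01 in that comparison. In CTCF-A KO RELB rose by 0.20 ± 0.07 (adjusted p 0.0194), but by 0.02 with the trend removed (adjusted p 0.814) and by 0.10 with replicate 4 alone (adjusted p 0.347). RELB has the highest GC content of the 10 genes, above that of 97.2% of the genes tested. The CTCF-A KO call was also lost without replicate 1 of that group (adjusted p 0.0521) or without WT replicate 4 (adjusted p 0.0577). The difference of CTCF-A KO from CTCF-B KO was -0.58 ± 0.07 (adjusted p 9.44e-06), and -0.79 with the trend removed.

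NFKB2 (ENSG00000077150, chromosome 10, 102394110 to 102402529, plus strand) encodes p100, the precursor of p52. It stood at 9.84, 9.66, 9.79 and 9.52 in CTCF-A KO, 9.87, 9.89, 9.85 and 9.77 in the CTCF-B KO libraries, and 9.46, 9.61, 9.45 and 9.57 in WT. All CTCF-B KO libraries lay above WT, whereas CTCF-A KO replicate 4 fell within the WT range. It rose by 0.32 ± 0.07 in CTCF-B KO (SE, n = 4, limma adjusted p 0.00251) and by 0.36 with the trend removed. The CTCF-A KO rise of 0.18 ± 0.07 (adjusted p 0.0393) became -0.01 with the trend removed (adjusted p 0.795) and -0.01 with replicate 4 alone (adjusted p 0.937). It also missed the threshold without any of CTCF-A KO replicates 1, 2 and 3, CTCF-B KO replicates 1 and 3, or WT replicates 1, 3 and 4 (adjusted p 0.0502 to 0.111). The knockouts did not differ as deposited by a margin that passed (-0.14 ± 0.07, 95% interval -0.29 to 0.01, adjusted p 0.0826), and differed by -0.37 with the trend removed (adjusted p 2.17e-06).

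NFKB1 (ENSG00000109320, chromosome 4, 102501329 to 102617302, plus strand), the gene of p105 and p50, was the member that fell. Its values were 9.48, 9.51, 9.42 and 9.63 in CTCF-A KO, 9.81, 9.82, 9.80 and 9.82 in the CTCF-B KO libraries, and 9.69, 9.80, 9.68 and 9.73 in WT. All CTCF-A KO libraries lay below those of both other groups. The fall in CTCF-A KO was -0.22 ± 0.05 (SE, n = 4, limma adjusted p 0.00213) and -0.28 with the trend removed (adjusted p 2.78e-04). With replicate 4 alone it was -0.10 (adjusted p 0.170), and the 19 other genes within 5 Mb had a median of -0.27, or -0.09 with the trend removed. In CTCF-B KO the difference was 0.09 ± 0.05 (95% interval -0.02 to 0.19, adjusted p 0.180). The difference of CTCF-A KO from CTCF-B KO was -0.30 ± 0.05 (adjusted p 1.35e-04), or -0.39 with the trend removed. Between the knockouts the 19 other genes within 5 Mb had a median of -0.39, or -0.25 with the trend removed.

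RELA (ENSG00000173039, chromosome 11, 65653596 to 65663094, minus strand) passed in none of the 3 comparisons as deposited. It stood at 11.22, 11.10, 11.19 and 11.03 in CTCF-A KO, 11.19, 11.30, 11.20 and 11.10 in the CTCF-B KO libraries, and 11.20, 11.24, 11.19 and 11.20 in WT, so the groups overlapped. The difference from WT was -0.07 ± 0.05 in CTCF-A KO (SE, n = 4, 95% interval -0.18 to 0.04, limma adjusted p 0.238) and -0.01 ± 0.05 in CTCF-B KO (95% interval -0.12 to 0.10, adjusted p 0.896). With the GC and length trend removed it passed as lower in CTCF-A KO (-0.25, adjusted p 2.02e-05), as it did with replicate 4 alone (-0.17, adjusted p 0.0277). For the 177 other genes within 5 Mb the CTCF-A KO median was -0.01, and -0.17 with the trend removed.

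Of the kinase complex genes, IKBKB (ENSG00000104365, chromosome 8, 42271302 to 42332653, plus strand) encodes a catalytic subunit, IKK-beta. It stood at 9.56, 9.61, 9.74 and 9.59 in CTCF-A KO, 9.67, 9.58, 9.59 and 9.69 in the CTCF-B KO libraries, and 9.55, 9.41, 9.52 and 9.48 in WT. Both knockouts lay just above WT, by 0.13 ± 0.05 in CTCF-A KO (SE, n = 4, limma adjusted p 0.0375) and by 0.14 ± 0.05 in CTCF-B KO (adjusted p 0.0426). The CTCF-A KO value was 0.11 with the trend removed and just missed the threshold (adjusted p 0.0603), and the call was also lost when replicate 4 stood alone (0.10, adjusted p 0.247) and without CTCF-A KO replicate 2 or 3 or WT replicate 2, 3 or 4 (adjusted p 0.0526 to 0.126). The CTCF-B KO call was lost without CTCF-A KO replicate 2, any CTCF-B KO replicate, or WT replicate 2, 3 or 4 (adjusted p 0.0516 to 0.129). The knockouts differed from each other by -0.01 (95% interval -0.12 to 0.10). CHUK, the gene of the other catalytic subunit, IKK-alpha, is among the other pathway genes listed below. It fell in CTCF-A KO (-0.60 ± 0.10, SE, n = 4, limma adjusted p 2.42e-04), also with the trend removed (-0.19, adjusted p 0.00162). In CTCF-B KO CHUK did not pass (-0.03 ± 0.10, limma adjusted p 0.846).

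IKBKG (ENSG00000269335, chromosome X, 154541199 to 154565046, plus strand) encodes NEMO, the regulatory subunit of IKK. It stood at 9.61, 9.18, 9.16 and 8.98 in CTCF-A KO, 8.95, 8.92, 8.91 and 8.74 in the CTCF-B KO libraries, and 9.04, 8.69, 8.78 and 8.68 in WT. It was the most variable of the 10 genes within CTCF-A KO (SD 0.27), and CTCF-A KO overlapped WT. It rose by 0.44 ± 0.12 in CTCF-A KO (SE, n = 4, limma adjusted p 0.00643), by 0.24 with the trend removed (adjusted p 0.0248), and did not pass with replicate 4 alone (0.18, adjusted p 0.242). In CTCF-B KO the difference was 0.08 ± 0.12 (95% interval -0.17 to 0.34, adjusted p 0.614). The knockouts differed by 0.35 ± 0.12 (adjusted p 0.0184), a call that was lost with the trend removed (0.16, adjusted p 0.112) and without CTCF-B KO replicate 4 (adjusted p 0.0571). The 58 other genes within 5 Mb had a median of 0.34 between the knockouts, or 0.28 with the trend removed. For CTCF-A KO against WT their median was 0.21, or 0.10 with the trend removed. The IKBKG values are uncertain, because a near-identical pseudogene, IKBKGP1, may share reads and because the strand setting of the counting is not given in the sources used here.

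**Figure D3:**
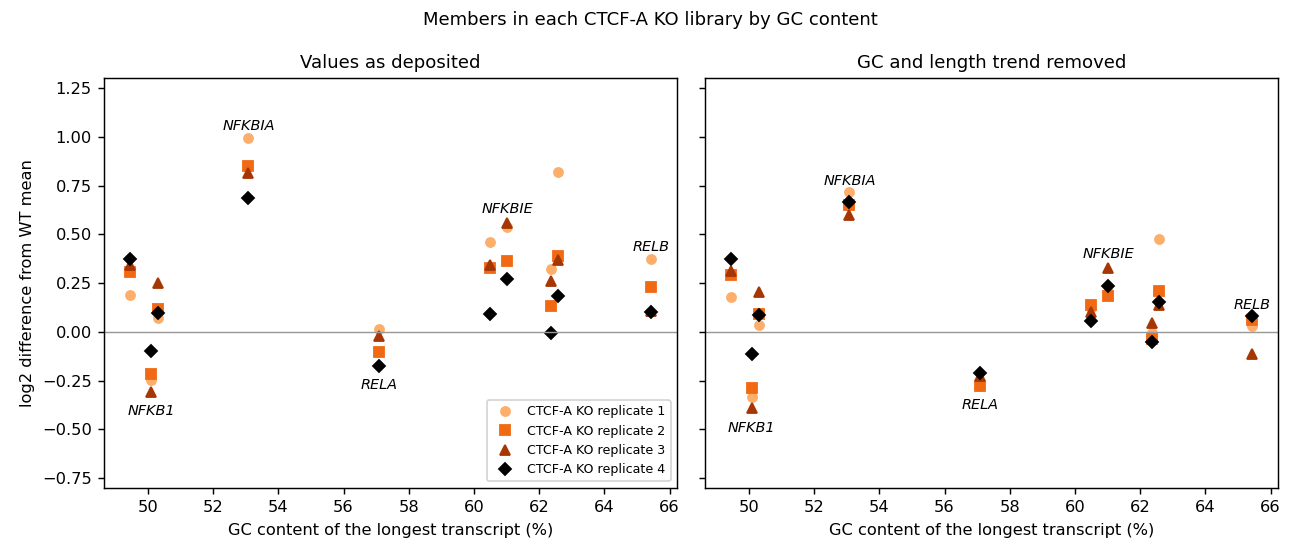
Log2 difference of each CTCF-A KO library from the WT mean (y axis) for the 10 genes by the GC content of the longest transcript (x axis, percent), as deposited on the left and with the GC and length trend removed on the right. As deposited, replicate 4 is the CTCF-A KO library closest to the WT mean for 7 of the 10 genes, and after removal of the trend the 4 libraries span a narrower range for 8 of the 10 genes, the exceptions being NFKB1 (0.28 against 0.21 as deposited) and TNFAIP3 (0.192 against 0.187).

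Between the knockouts 6 of the 10 genes differed, where 66.0% of all genes passed, 33.4% as higher and 32.6% as lower in CTCF-A KO. NFKBIA, NFKBIE, TNFAIP3 and IKBKG were higher in CTCF-A KO, and RELB and NFKB1 lower. With the trend removed 1 was higher, NFKBIA, and 5 were lower, namely RELB, NFKB1, NFKB2, RELA and NFKBIB (68.4% of all genes, 32.8% as higher and 35.6% as lower). In 4 of the 10 genes the libraries of the knockouts did not overlap, against 53.5% of all genes. Without CTCF-B KO replicate 4, 3 of the 10 passed as deposited, against 61.0% of all genes. NFKBIA, RELB and NFKB1 kept their direction and call in this comparison under each of the 24 alternatives run.

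The genes whose profiles over the 12 libraries were most like those of NFKBIA and RELB were found by the root mean square difference. It was taken on deposited values, GC trend included, centred on the WT mean. Fold changes like those of NFKBIA and RELB follow from this choice and are no separate result. For NFKBIA the genes found were WDR24 (0.04) and LGALS3 (0.07), whose log2 fold changes were 0.84 and 0.84 for CTCF-A KO, against 0.13 and 0.18 for CTCF-B KO. For RELB they were SLC7A5 (0.08) and PLAUR (0.10), with 0.22 and 0.17 for CTCF-A KO, against 0.79 and 0.71 for CTCF-B KO.

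Of 60 other pathway genes listed, 49 were tested and the rest were not analysed here. The list was chosen with earlier results of these data known, so its shares against all genes only describe it. In CTCF-A KO 19 rose and 16 fell (71.4% passed, against 62.9% of all genes), with a median of 0.03. With the trend removed 19 rose and 12 fell (63.3%, against 61.5% of all genes), a share near the background. The 6 with the smallest adjusted p were CYLD, a deubiquitinase that limits IKK signalling (-0.91 ± 0.08, SE, n = 4), TNIP1, a partner of A20 (0.63 ± 0.06), the ribonuclease gene ZC3H12A (0.59 ± 0.06), RBCK1, part of the linear ubiquitin ligase (0.62 ± 0.06), the paracaspase gene MALT1 (-1.06 ± 0.12) and the interleukin-1 receptor chain IL1RAP (-0.96 ± 0.11), with limma adjusted p from 1.83e-06 to 1.48e-05. With the trend removed these 6 kept their direction, CYLD at -0.45 and MALT1 at -0.59.

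In CTCF-B KO 9 of the 49 rose and 9 fell (36.7%, against 39.4% of all genes), with a median of 0.04. With the trend removed 13 rose and 10 fell (46.9%, against 54.0%). RBCK1 (0.80 ± 0.06, SE, n = 4), RIPK2, a kinase of the NOD receptors (0.66 ± 0.08), NFKBIZ, an atypical nuclear IkB (0.88 ± 0.11), and IRAK2, a kinase of interleukin-1 signalling (0.52 ± 0.07), rose. MAP3K14, the kinase NIK that starts the second branch (-0.64 ± 0.05), and the scaffold CARD10 (-0.56 ± 0.07) fell (limma adjusted p 5.44e-07 to 7.07e-05). In CTCF-A KO MAP3K14 rose by 0.16 ± 0.05 (limma adjusted p 0.0196), and stood at 0.00 with the trend removed (adjusted p 0.922). Between the knockouts 36 of the 49 differed (73.5%, against 66.0% of all genes), with 14 of them higher in CTCF-A KO and 22 lower, or 18 higher and 22 lower with the trend removed (81.6%, against 68.4%). The smallest adjusted p belonged to MAP3K14 (0.80 ± 0.05), ZC3H12A (0.82 ± 0.06), RIPK2 (-0.88 ± 0.07), CYLD (-0.92 ± 0.09), TNIP1 (0.63 ± 0.06) and TAB1, an adaptor of the kinase TAK1 (0.63 ± 0.07).

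Target genes of NF-kB went both ways in each knockout. Of 50 listed, 20 were tested and the rest were not analysed here. This list too was chosen with earlier results of these data known, so its shares against all genes only describe it. In CTCF-A KO 10 rose and 5 fell (75%, against 62.9% of all genes), with a median of 0.15. With the trend removed 11 rose and 7 fell (90%, against 61.5%). CSF1, a macrophage growth factor (1.58 ± 0.06, SE, n = 4), the cell surface proteoglycan gene SDC4 (0.75 ± 0.06), the transcription factor gene IRF1 (0.82 ± 0.08), the pattern recognition gene PTX3 (0.88 ± 0.08) and PLAU, which encodes urokinase (0.51 ± 0.05), rose, and the cytokine gene IL11 fell (-1.63 ± 0.10). Their limma adjusted p ran from 1.93e-09 to 4.86e-06.

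In CTCF-B KO 7 of the 20 target genes rose and 8 fell (75%, against 39.4% of all genes), with a median of -0.08. With the trend removed 8 rose and 9 fell (85%, against 54.0%). PTX3 rose by 2.00 ± 0.08 (SE, n = 4), the chemokine gene CXCL8 by 2.52 ± 0.15 and KLF6, a transcription factor gene, by 0.43 ± 0.05. PLAU (-1.09 ± 0.05), the chemokine gene CCL2 (-1.28 ± 0.08) and LIF, a cytokine gene (-0.75 ± 0.09), fell (limma adjusted p 1.98e-09 to 4.08e-05). CXCL8 stood at 8.60, 9.16, 8.63 and 8.87 in CTCF-A KO, 12.07, 12.62, 12.12 and 11.87 in the CTCF-B KO libraries, and 9.70, 9.52, 9.70 and 9.68 in WT, so that the 3 groups did not overlap and CTCF-A KO lay lowest. Between the knockouts 17 of the 20 differed (85%, against 66.0% of all genes), with 12 of them higher in CTCF-A KO and 5 lower. Removing the trend gave the same counts (68.4% of all genes). Among them were PLAU (1.60 ± 0.05), CSF1 (1.80 ± 0.06), CXCL8 (-3.35 ± 0.15), IL11 (-2.09 ± 0.10), KLF6 (-0.89 ± 0.05) and PTX3 (-1.11 ± 0.08).

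**Figure D4:**
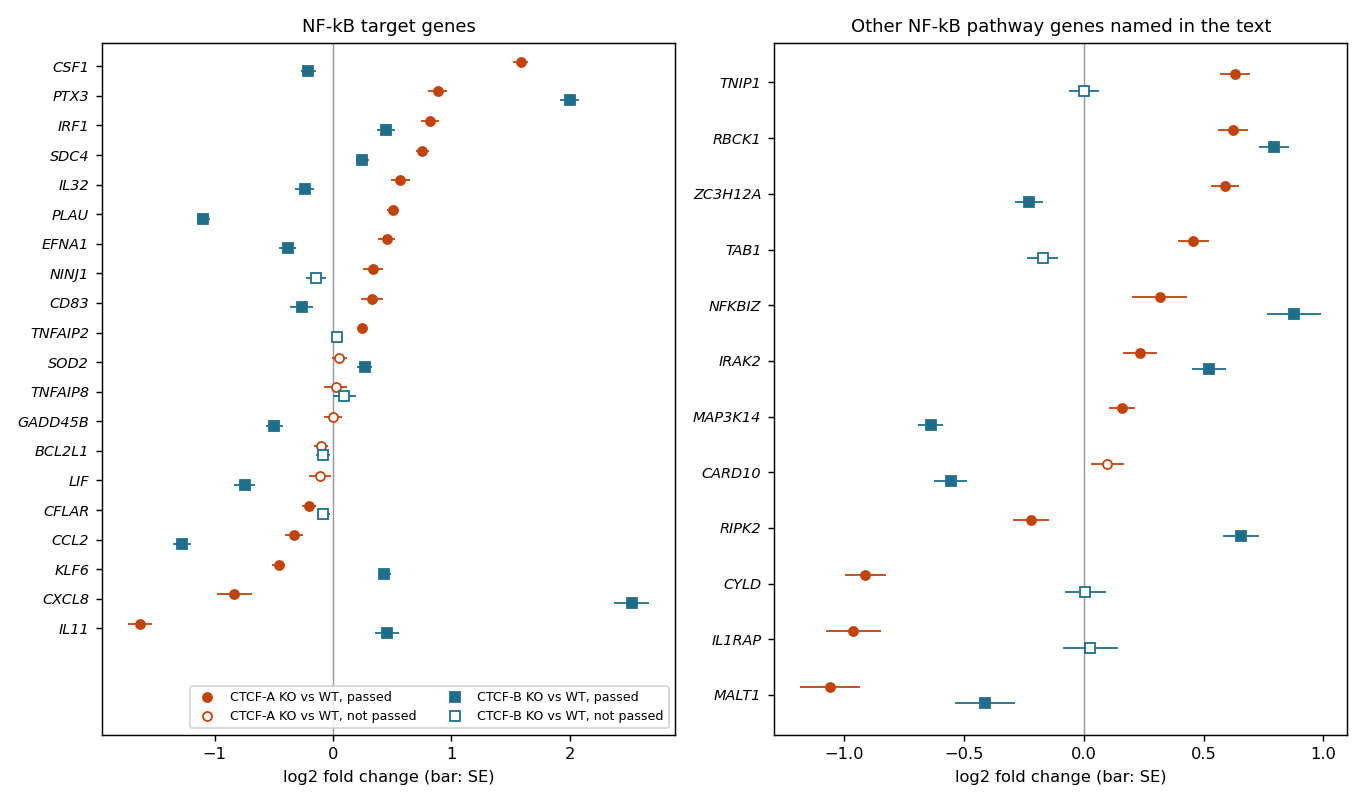
Log2 fold change against WT (x axis, bar: SE) in CTCF-A KO (circles) and CTCF-B KO (squares) of the 20 target genes tested on the left and the named pathway genes except CHUK on the right, filled where the adjusted p was under 0.05. The comparisons share the WT libraries. CXCL8 is at -0.83 for CTCF-A KO, against 2.52 for CTCF-B KO, and PLAU is at 0.51 for CTCF-A KO, against -1.09 for CTCF-B KO.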

How the data were processed

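The deposited table holds log2 values that the authors had normalized between libraries, as the values themselves show: their range is 1.34 to 17.97 with fractional parts. The transformation behind them is not recorded. Trimmomatic 0.33, featureCounts and DESeq2 were used with build GRCh38.p7, per the submitters' processing notes. The aligner, annotation and strand setting are not given in the sources used here. Reads could not be recovered, so depth and counting error are unknown.

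The values were used as they stood. Genes with a linear value of at least 10 in at least 4 of 12 libraries were kept, 11128 of 11178. Group means over the 12 libraries were estimated in a single fit, using limma 3.58.1 under R 4.3.3 (trended empirical Bayes, two-sided, Benjamini-Hochberg at 0.05 over all kept genes), tested on simulated data. Fold changes are differences of log2 group means with the SE of that model. The GC and length trend of each library was estimated as its deviation from the WT mean with natural splines (5 degrees of freedom for GC, 4 for log2 length, and their product) and removed as an alternative. GC content and length come from the longest GENCODE 29 transcript and were known for 99.7% of kept genes.

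The 10 genes and all lists were chosen with earlier results of these data known. All 10 were named in every comparison, with the 6 genes of each list with the smallest adjusted p, and the 2 genes most like each member that passed with a log2 change of at least 0.5 against WT. CHUK was named besides these because it encodes a catalytic subunit of IKK. One result on a gene outside the lists is not reported here.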

Additional observations from a re-analysis of the deposited data

Results flagged for a closer look

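Each of the 10 genes was examined for a single library far from the other 3 of its group, which chance gives in about 1 in 20 groups. Of the 30 groups of 4 libraries, 2 held one. TNFAIP3 stood at 7.24 in WT replicate 2, against 7.41 to 7.44 in the other WT libraries, and without that library its rise in CTCF-A KO was 0.26. IKBKG stood at 8.74 in CTCF-B KO replicate 4, against 8.91 to 8.95 in the other CTCF-B KO libraries.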

How the results depend on the processing

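The alternatives were other normalizations, filters and pseudocounts, removal of the GC and length trend, fits of 2 groups alone, a replicate block, replicate 4 standing alone for CTCF-A KO, and leaving out each library in turn. The rises of NFKBIA (0.66 to 0.89), NFKBIE (0.24 to 0.51) and TNFAIP3 (0.26 to 0.38) in CTCF-A KO kept direction and call under all 24, and those of RELB (0.76 to 0.82) and NFKB2 (0.30 to 0.36) in CTCF-B KO under all 23. Depth is unknown, so counting error could not be given.

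In CTCF-B KO against WT, a fit of only those 8 libraries passed 7 members, 29 other pathway genes and 6601 of all genes, against 4, 18 and 4389. With CTCF-A KO replicate 4 alone, CTCF-A KO against WT passed 4 members, 22 other pathway genes and 4654 of all genes, against 9, 35 and 7002; the lone library is assumed to vary like the others. Leaving out 1 library gave 6 to 9 members (6182 to 8210 of all genes) in CTCF-A KO against WT, 2 to 6 (3670 to 5824) in CTCF-B KO against WT and 3 to 7 (6734 to 8425) between the knockouts. RELA in CTCF-B KO changed sign to 0.041 under quantile normalization, and ran from -0.044 to 0.021 with 1 library left out. IKBKB between the knockouts changed sign to 0.028 under quantile normalization and ran from -0.048 to 0.012 with 1 library left out. NFKB2 in CTCF-A KO was -0.013 with the trend removed, with or without the replicate block, and -0.008 with replicate 4 alone. NFKBIB between the knockouts was -0.113 with the trend removed, with or without the block, and -0.141 with replicate 4 alone. The causes were not tested.

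The groups share replicate numbers in the labels, but same-numbered libraries did not deviate together in a consistent way. The correlations of their deviations from the group means ran from -0.32 (replicate 3 of CTCF-A KO and WT) to 0.43 (replicate 4 of CTCF-A KO and CTCF-B KO). With the replicate block 8, 4 and 6 members passed in CTCF-A KO against WT, CTCF-B KO against WT and CTCF-A KO against CTCF-B KO, with 7060, 4414 and 7420 of all genes. The block ended the IKBKB calls in CTCF-A KO (limma adjusted p 0.0509) and in CTCF-B KO (0.0584) and added NFKBIE in CTCF-B KO (0.0275).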
